A study of Mus musculus with 12 samples.

Results

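The matrix metalloproteinases (Mmp), the Adamts proteinases and their tissue inhibitors (Timp) were followed across pressure overload and a calcineurin transgene in the mouse left ventricle. All mouse symbols of the forms Mmp, Adamts or Timp plus a number were taken, by name and not by any measured value. Of 46 such symbols, 45 had a probe on the array, of 20021 symbols on it; Mmp27 had none. The 45 comprised 22 Mmp, 19 Adamts and 4 Timp genes.

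RNA came from a section of left ventricle of C57/Bl6 mice, taken 21 days after surgery, and was hybridised to single-colour Agilent arrays. The source labels and protocol give 21 days for sham and TAC alike, whereas a separate time label gives 21 for TAC and 0 for sham arrays; 21 days is used here. The 4 groups of 3 arrays were transgenic hearts overexpressing CnAb1, an alternatively spliced form of the phosphatase calcineurin, after transverse aortic constriction (TG TAC) or sham surgery (TG sham), and control hearts without the transgene, called wild type here, after TAC (WT TAC) or sham surgery (WT sham). TAC narrows the aorta with a band and so raises the pressure against which the left ventricle works. The labels name neither the promoter that drives the transgene nor the age of the mice, and do not say that each array came from a separate mouse, so each p-value reflects only array-to-array spread, which may in part be technical. The comparisons ask what banding does to these genes in each genotype, what the transgene does under each surgery, and whether the response to banding differs between genotypes.

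Mmps are zinc-dependent endopeptidases that cleave collagens, gelatin, proteoglycans and other matrix proteins, and most are made as inactive precursors. Adamts proteinases are secreted relatives with thrombospondin repeats that cut proteoglycans such as versican and aggrecan or remove the propeptides of fibrillar procollagens. Timps bind the active site of these enzymes, and in the heart the balance of the families is known for its part in fibrosis and wall remodelling.

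Of the 45 genes, 37 were tested, each having stood well above background on 3 or more arrays: 15 Mmp, 18 Adamts and all 4 Timp genes. Being well above background is a flag that the scanner software gives each spot. On all 12 arrays, 12 genes carried it, namely Mmp2, Mmp11, Mmp15, Mmp23, Adamts1, Adamts2, Adamts9, Adamts15 and Timp1 to Timp4. The other 25 tested genes carried it on 3 to 11 arrays. The 8 genes below the filter were the collagenases Mmp1a and Mmp1b, the gelatinase Mmp9, Mmp16, Mmp20, Mmp21, Mmp25 and Adamts19. Mmp9 was well above background on 2 arrays, both TG sham, and Mmp16 on 1 TG TAC array; the other 6 were so on 0 arrays. No spot of these genes was saturated. A probe that passes only through the groups in which it is bright is open to differ between groups, so the counts below describe the 37 genes and not all 45.

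**Figure D1:**
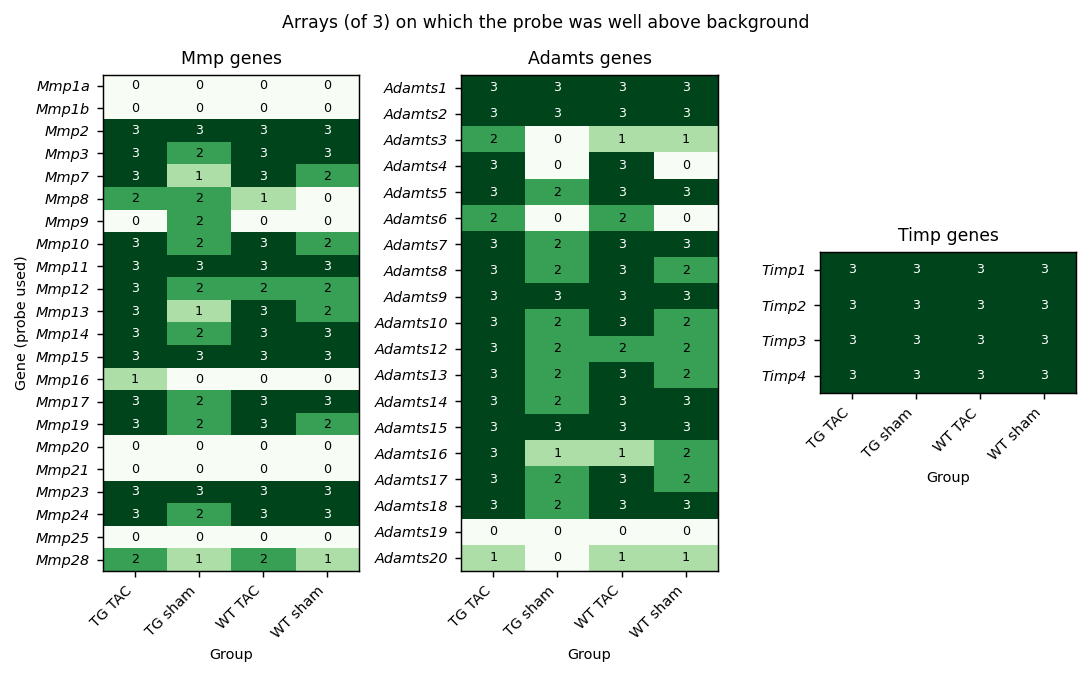
Number of arrays, of 3 in each group, on which the probe used for each gene was well above background; rows are genes, columns are TG TAC, TG sham, WT TAC and WT sham. All 4 Timp genes reach 3 arrays in every group, whereas Adamts4 reaches 3 in each TAC group and 0 in each sham group.

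One array stood apart. TG sham array 2 had net negative-control signals of 48.6, where the remaining arrays had 15.4 to 21.0. On it 13 of the 37 genes were well above background, against 21 to 37 on the others, and 20 were so on all of the other 11 arrays. The dimmest genes therefore read high there: Adamts4 had −4.20 on that array, against −7.01 and −6.82 on the other TG sham arrays, with none of the 3 well above background. Some less dim genes read low there instead, such as Mmp14 (−4.16, against −2.84 and −3.01) and Adamts7 (−3.62, against −2.44 and −2.67). Counts are given with and without TG sham array 2. The labelled tissue was borne out by cardiomyocyte markers, whose summed level, in multiples of each array's 75th percentile, was 1399 to 2485 over all arrays. The arrays lay on 5 slides, which is the only batch the files give, and 2 of them held more than 1 group.

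The promoters of 3 genes that rose in WT TAC hearts and of 2 neighbouring Mmp genes that did not pass are shown here to set the letters of the chromosome 9 Mmp genes beside those of other members. RefSeq entries were found for 32 of the 46 genes. The windows below are the 250 bases before the annotated start, on the gene's strand. Capitals mark 3 of 4 motifs searched on both strands: the AP-1 site TGANTCA, the GC box GGGCGG and the TATA box TATAAA. The fourth, the NFAT core TGGAAA, named for the factor that calcineurin activates, is left in lower case. The first 3 genes rose in WT TAC hearts (values below); Mmp3 and Mmp13 belong to a row of neighbouring Mmp genes on chromosome 9 and did not pass.
Timp1 (chrX:20869916-20870165, GRCm38.p6, plus strand): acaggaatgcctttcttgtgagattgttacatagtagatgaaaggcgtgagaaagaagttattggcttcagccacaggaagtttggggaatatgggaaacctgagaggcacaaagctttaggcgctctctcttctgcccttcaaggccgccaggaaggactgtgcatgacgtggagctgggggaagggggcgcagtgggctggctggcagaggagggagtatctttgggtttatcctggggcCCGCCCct
Adamts2 (chr11:50601835-50602084, GRCm38.p6, plus strand): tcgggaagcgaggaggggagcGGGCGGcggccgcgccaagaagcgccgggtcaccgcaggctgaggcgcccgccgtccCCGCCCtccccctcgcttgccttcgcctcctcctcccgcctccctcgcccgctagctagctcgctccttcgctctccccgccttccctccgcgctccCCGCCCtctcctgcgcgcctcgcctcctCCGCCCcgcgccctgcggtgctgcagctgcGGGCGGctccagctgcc
Mmp14 (chr14:54431348-54431597, GRCm38.p6, plus strand): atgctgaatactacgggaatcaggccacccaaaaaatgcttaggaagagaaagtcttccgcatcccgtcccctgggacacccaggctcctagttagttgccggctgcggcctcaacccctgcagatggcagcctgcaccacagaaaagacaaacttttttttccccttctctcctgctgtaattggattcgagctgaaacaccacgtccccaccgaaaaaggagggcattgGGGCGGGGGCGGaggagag
Mmp3 (chr9:7445572-7445821, GRCm38.p6, plus strand): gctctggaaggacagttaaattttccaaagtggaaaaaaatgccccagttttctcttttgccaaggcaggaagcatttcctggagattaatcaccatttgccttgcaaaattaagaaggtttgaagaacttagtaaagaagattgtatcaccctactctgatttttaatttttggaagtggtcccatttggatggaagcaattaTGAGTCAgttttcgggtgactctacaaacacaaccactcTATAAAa
Mmp13 (chr9:7272264-7272513, GRCm38.p6, plus strand): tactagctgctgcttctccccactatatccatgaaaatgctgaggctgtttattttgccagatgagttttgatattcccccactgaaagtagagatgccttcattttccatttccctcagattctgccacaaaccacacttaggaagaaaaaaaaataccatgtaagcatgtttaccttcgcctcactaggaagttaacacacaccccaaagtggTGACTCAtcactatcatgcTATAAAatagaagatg
Of the 11 genes that rose, 6 had an entry (Adamts1, Adamts2, Mmp14, Mmp23, Timp1 and Timp2) and Adamts4, Adamts8, Adamts10, Adamts15 and Mmp2 had none. Of these 6, 5 held a GC box, 1 held a TATA box and 0 held the AP-1 letters. The chromosome 9 row is Mmp13, Mmp12, Mmp1b, Mmp3, Mmp1a, Mmp10, Mmp8, Mmp27, Mmp20 and Mmp7, of which 6 were tested and 0 passed in any comparison. Of its 10 genes, 8 held the AP-1 letters, 7 a TATA box and 0 a GC box. Of the other 16 members with an entry that did not rise or were not tested, 11 held a GC box, 1 a TATA box and 0 the AP-1 letters. The letters thus set the chromosome 9 row apart from the other members, and not the genes that passed from those that did not. The NFAT letters were in 0 of the 6 risen genes and in 3 of the 10 genes of the row, Mmp3 and Mmp13 among them. Of all 32851 promoters of this length, 6.75% held the AP-1 letters, 32.7% the GC box, 12.4% the TATA box and 18.6% the NFAT letters. Neighbouring Mmp genes share ancestry, so these matches are not independent, and a match of letters is not a binding site.

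Pressure overload in wild-type hearts raised a subset of the families led by the inhibitor Timp1 (18.5-fold) and by Adamts8 (14.4-fold on the probe used), Adamts2 (6.86-fold), Mmp2 (5.17-fold), Mmp23 (4.17-fold) and Mmp14 (3.50-fold). Adamts4 was not well above background in either sham group and was so on all 3 arrays of WT TAC. Of the 37 genes, 11 were higher and 1 was lower in WT TAC than in WT sham at an adjusted p under 0.05 (limma, Benjamini-Hochberg over 25321 genes), and 25 did not pass. Over all genes tested, 8.71% were higher and 12.5% lower. Of all called genes 41.0% were higher, and 52.5% under quantile normalization. The median log2 difference was 0.22 over the 37 genes and −0.13 over all genes. In each of the 12 called genes the arrays of the groups did not overlap. Counting every gene without overlap, 13 of 37 were all higher and 7 all lower in WT TAC, against 17.6% and 29.4% of all genes.

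Values are log2 signals relative to the 75th percentile of their array, listed for arrays 1, 2 and 3, and levels of different genes are not comparable on this scale. Timp1, the secreted inhibitor best known for its rise in injured and fibrotic tissue, read 2.53, 2.74 and 3.06 in WT TAC and −1.42, −0.96 and −1.94 in WT sham. The difference was 4.21 ± 0.63 (SE, adjusted p = 0.00281, limma). The lowest WT TAC array lay well above the highest WT sham array. Timp2, which inhibits Mmp2 and also takes part in its activation, read 4.66, 4.75 and 5.35 in WT TAC and 4.0, 4.14 and 3.77 in WT sham. It rose by 0.95 ± 0.20 (adjusted p = 0.0118, limma), and its other probe rose by 0.64 (adjusted p = 0.0103 over all probes, limma). Timp3, which is held in the matrix, differed by 0.07 ± 0.29, with a 95% interval of −0.56 to 0.71. Timp4, the Timp known for its high expression in heart, read 0.95, 1.71 and −0.80 in WT TAC and 1.84, 2.25 and 1.92 in WT sham. Its groups did not overlap, but the WT TAC arrays spread widely and the difference of −1.38 ± 0.66 did not pass (adjusted p = 0.172, limma).

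Among the gelatinases, Mmp2 read 2.04, 1.79 and 2.67 in WT TAC and −0.27, 0.12 and −0.46 in WT sham. The difference was 2.37 ± 0.25 (adjusted p = 0.000765, limma), with the groups well apart. Its membrane-bound activator Mmp14, which also cleaves fibrillar collagen, read −1.82, −1.71 and −0.82 in WT TAC and −3.14, −3.17 and −3.46 in WT sham. It rose by 1.81 ± 0.35 (adjusted p = 0.00693, limma) and was the 1 of 4 tested membrane-type Mmps to pass. Mmp15, Mmp17 and Mmp24, the other membrane-type enzymes, differed by −0.60 to −0.11. Mmp23, an unusual Mmp anchored by its amino-terminal part and released on cleavage, read 1.01, 0.74 and 1.37 in WT TAC and −1.0, −1.06 and −1.0 in WT sham. Its difference of 2.06 ± 0.20 (adjusted p = 0.000707, limma) had the smallest standard error of the risen Mmps. Mmp19 (0.54) and Mmp28 (0.34) did not pass.

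Neither the collagenases nor the stromelysin group gave a call. Of the 2 tested collagenases and the 5 tested stromelysins, matrilysin and metalloelastase, 0 passed. Mmp3, stromelysin 1, read −1.83, −1.37 and −0.38 in WT TAC and −2.96, −1.27 and −2.63 in WT sham, a difference of 1.09 ± 0.49 (adjusted p = 0.146, limma). The groups overlapped through WT sham array 2, and without that array the difference was 1.60 (adjusted p = 0.0400, limma). Mmp12, the macrophage metalloelastase, read −5.31, −5.00 and −5.48 in WT TAC and −4.52, −4.58 and −4.68 in WT sham. The groups did not overlap, and the difference of −0.67 ± 0.22 missed the threshold (adjusted p = 0.0550, limma). Mmp11, stromelysin 3, was well above background on all 12 arrays and differed by 0.04 ± 0.16, with a 95% interval of −0.32 to 0.40. Its other probe gave 0.09. Mmp13, the main interstitial collagenase of rodents, differed by −0.06 ± 0.63, with a wide 95% interval of −1.47 to 1.36.

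Of the 7 Adamts proteoglycanases, 4 rose: Adamts1, Adamts4, Adamts8 and Adamts15. Adamts4, aggrecanase 1, read −4.51, −2.85 and −2.60 in WT TAC and −6.82, −6.41 and −6.37 in WT sham. Because WT sham was not well above background, the rise is a bound of at least 4.30-fold. The test was of the measured difference, 3.22 on the log2 scale (adjusted p = 0.0127, limma), and not of that bound. Adamts4 also passed the filter through the TAC groups alone, so its place among the 4 is open to that selection. Adamts1, which cleaves versican, read 2.15, 1.29 and 2.22 in WT TAC and 0.95, 1.02 and 0.47 in WT sham, a rise of 1.07 ± 0.29 (adjusted p = 0.0259, limma). WT TAC array 2 lay nearest to the sham arrays. Adamts15, another versicanase, read −0.67, −0.72 and −0.78 in WT TAC and −1.99, −1.32 and −1.74 in WT sham. It rose by 0.96 ± 0.23 (adjusted p = 0.0154, limma). The aggrecanase Adamts5 (0.48), Adamts9 (0.35) and Adamts20 (−1.17) did not pass.

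Adamts8, an aggrecanase-type member, depends on which probe is read. The probe used, well above background on 10 arrays, read −1.08, −0.91 and −1.08 in WT TAC and −4.60, −4.99 and −5.02 in WT sham. The difference was 3.85 ± 0.23 (adjusted p = 0.000362, limma). The other probe, well above background on 11 arrays, read −3.89, −3.21 and −3.94 in WT TAC and −2.74, −2.75 and −3.44 in WT sham, a difference of −0.70 ± 0.35 (adjusted p = 0.195, limma). The probes thus point opposite ways. The probe used was the brighter in its mean over all arrays and in both TAC groups, with −1.02 against −3.68 in WT TAC. The other probe was the brighter in WT sham (−2.98 against −4.87) and in TG sham (−3.08 against −3.73). The choice of probe thus drew on the WT TAC values that the difference compares. Which probe reads the Adamts8 transcript faithfully was not tested, and every result for this gene below is that of the probe used unless the other is named.

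Among the procollagen N-proteinases, which trim the amino-terminal propeptide so that collagen can form fibrils, Adamts2 rose. It read 3.78, 3.79 and 4.29 in WT TAC and 1.10, 1.56 and 0.86 in WT sham, a difference of 2.78 ± 0.24 (adjusted p = 0.000510, limma). Its other probe rose by 1.13 ± 0.28 (adjusted p = 0.0191, limma), the same direction at a smaller size. Adamts14 (0.22) and Adamts3 (0.37) did not pass. Of the 8 other Adamts genes tested, Adamts10, a protein of fibrillin-rich microfibrils, read −3.16, −3.54 and −3.05 in WT TAC and −4.18, −5.08 and −3.87 in WT sham. It rose by 1.13 ± 0.30 (adjusted p = 0.0250, limma). Adamts17, also linked to fibrillin microfibrils, was the single gene to fall, by 0.64 on the log2 scale (adjusted p = 0.0329, limma), whereas its other probe, well above background on 5 arrays, gave 1.35 (adjusted p = 0.359, limma). The fall of Adamts17 turned to 0.35 when its probes were averaged and to 0.45 under normexp background correction.

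Substrates, activators and related proteins were read beside these genes. Of 47 such genes tested, 25 were higher and 1 was lower in WT TAC, with a median of 0.84 on the log2 scale. Of 15 tested substrates 12 rose, including Fbn1 (2.99), the fibrillin of microfibrils, the basement membrane collagens Col4a1 (1.78) and Col4a2 (1.44), the fibrillar collagen Col1a2 (3.08) and Comp (6.59), the cartilage oligomeric matrix protein, whereas the proteoglycan Vcan (0.05), a classic Adamts substrate, did not pass. All 3 of the procollagen C-proteinase Bmp1 (1.35) and its enhancers Pcolce (1.74) and Pcolce2 (1.18) rose, of 5 tested. Among 10 activators and regulators, those that rose included the clearance receptor Lrp1 (1.56), the plasminogen activator Plat (1.19) and the protease inhibitor Serpine2 (1.37), and Bsg, the Mmp inducer basigin, fell by 0.91 on the log2 scale. Cathepsin K (Ctsk, 2.35) and cathepsin S (Ctss, 0.71) rose among 4 cathepsins. Of 6 Adamts-like proteins, which lack a protease domain, Adamtsl2 (2.61) and Papln (1.82) rose, as did Adam9 (0.80) and Adam15 (0.62) among 7 Adam genes.

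Markers of other cells moved as well. Of 8 fibroblast markers, 6 were higher in WT TAC, and the summed level of the 8, in multiples of the 75th percentile, was 57.8 to 80.6 in WT TAC and 10.8 to 17.7 in WT sham. That sum was led in WT TAC by Pi16 and Postn, with log2 means of 5.19 and 4.19 there and 3.11 and −1.22 in WT sham. The median log2 difference of the 8 markers was 1.62 and the smallest 0.44. Of 7 cardiomyocyte markers 6 were lower, with a summed level of 1399 to 1564 in WT TAC and 2382 to 2485 in WT sham. The 75th percentile itself was higher in WT TAC (log2 signals of 9.88, 9.89 and 9.95) than in WT sham (9.24, 8.97 and 9.22). A higher percentile lowers values on this scale. The part of this shift in the fall was not tested, and saturation was not checked for the marker probes. Of 7 tested macrophage markers 2 were higher, of 6 smooth muscle and pericyte markers 2, and of 5 tested neutrophil markers 0. Of 6 endothelial markers 3 were higher and 1 was lower, with summed levels of 14.6 to 16.3 in WT TAC and 13.6 to 15.1 in WT sham, and of 3 tested mesothelial markers 1 was lower. Ly6g and Ngp were not above the filter. In such tissue RNA, more cells of a type and more RNA per cell cannot be told apart, and the part of these markers in the results was not tested. Without TG sham array 2, whose spread enters the shared error, 15 of the 37 genes were called in WT TAC against WT sham, and 5979 of all 25321. Adamts6 (higher) and Adamts7 and Mmp12 (lower) were the genes added. Adamts6 was well above background in neither sham group and passed the filter through the TAC groups alone, so its call is open to that selection. Its rise is a bound of at least 1.10-fold. On slide 3, with 1 WT TAC and 2 WT sham arrays, the 12 called genes differed by −0.67 to 3.92. Their direction there was fixed in advance, because their groups did not overlap, so it is no separate check. With slide as a fixed block 3 genes passed, Adamts2, Adamts8 and Mmp23, while calls over all genes fell from 5378 to 547.

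**Figure D2:**
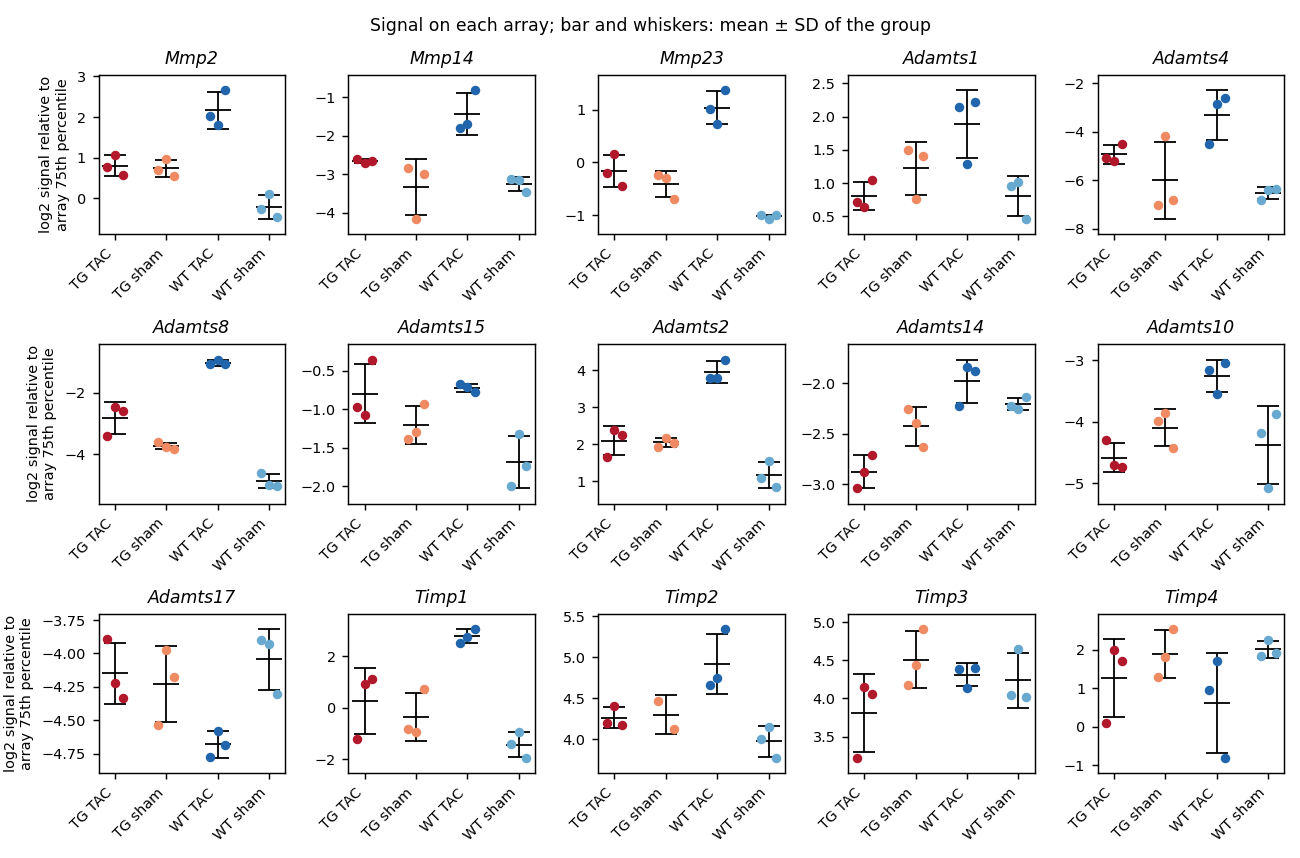
Log2 signal relative to the array's 75th percentile for 15 genes, by group (TG TAC, TG sham, WT TAC, WT sham); points are arrays, bars and whiskers the mean and SD of 3 arrays (2 for Timp2 in TG sham, where 1 spot was left out as an outlier). WT TAC lies above all other groups for Timp1, Adamts2, Adamts8, Mmp2 and Mmp23.

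In transgenic hearts banding moved none of these genes past the threshold: of 37 tested, 0 were called between TG TAC and TG sham (limma). Over all 25321 genes the count was also 0 (0%), with 1575 genes, or 6.22%, at an unadjusted p under 0.05, where 4 of the 37 genes lay. Of the 37, 2 had every TG TAC array above every TG sham array and 3 had every one below, against 4.56% and 3.95% of all genes. The 37 differences ran from −2.33 (Mmp8) to 1.08 (Adamts4), with a median of −0.04, against −0.01 over all genes. Timp1 read −1.21, 0.92 and 1.11 in TG TAC and −0.84, −0.94 and 0.72 in TG sham. The arrays were mixed between the groups, and the difference was 0.62 ± 0.63 (adjusted p = 0.853, limma). Mmp2 read 0.77, 1.08 and 0.57 in TG TAC and 0.69, 0.97 and 0.56 in TG sham, a difference of 0.07 ± 0.25 (adjusted p = 0.958, limma). Adamts2 read 1.65, 2.38 and 2.26 in TG TAC and 1.93, 2.18 and 2.05 in TG sham, a difference of 0.04 ± 0.24 (adjusted p = 0.974, limma). For both, TG TAC and TG sham arrays lay in the same range. Adamts8 read −3.41, −2.45 and −2.59 in TG TAC and −3.61, −3.76 and −3.82 in TG sham, so its groups did not overlap, and the difference of 0.91 ± 0.23 did not pass (adjusted p = 0.797, limma). Adamts4 was well above background on 3 arrays of TG TAC and on 0 of TG sham, yet TG sham array 2 raises the bound so far that no fold can be given. Of 47 pathway genes 0 passed. Without TG sham array 2 the count over the 37 genes stayed 0.

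**Figure D3:**
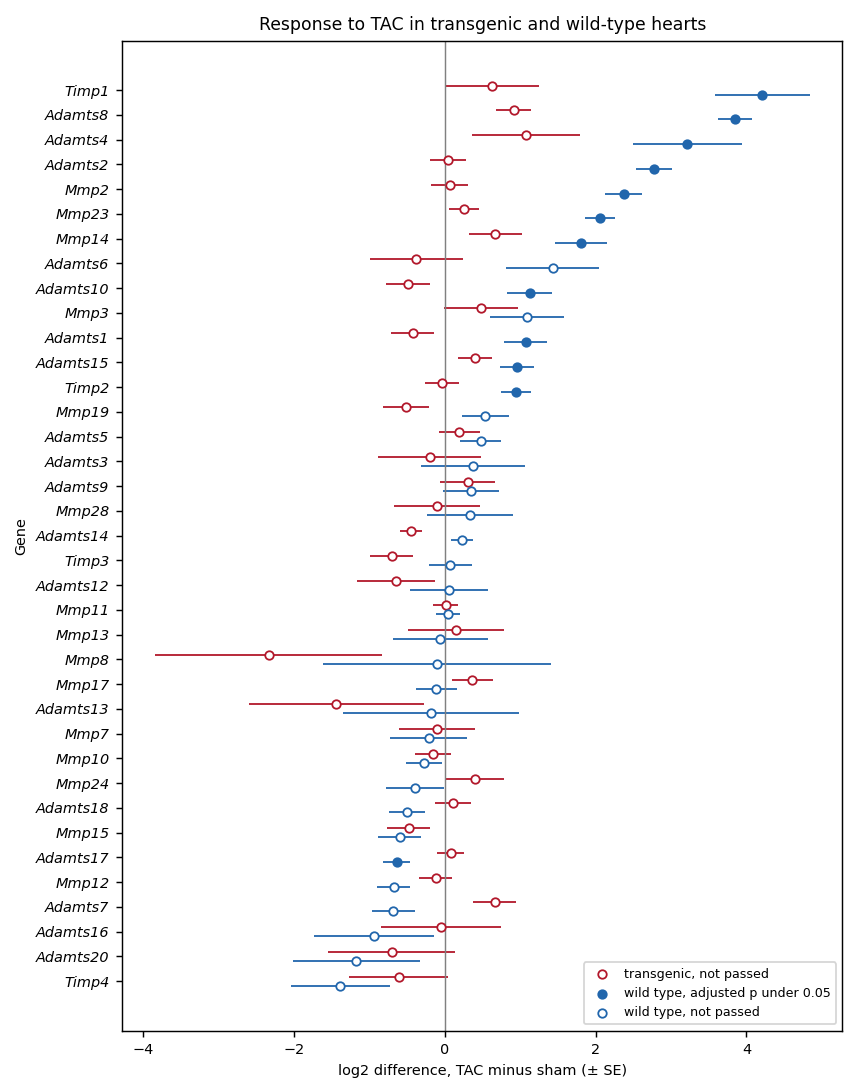
Log2 difference between TAC and sham (± SE) for the 37 tested genes in transgenic (red, above) and wild-type hearts (blue, below), ordered by the wild-type value; filled points passed an adjusted p under 0.05. The 12 filled points are all wild type, and the transgenic values of Timp1, Adamts2 and Mmp2 lie at 0.62, 0.04 and 0.07.

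The transgene without banding changed 1 of the 37 genes: Adamts8 was higher in TG sham than in WT sham, against 0.774% of all genes called higher and 0.660% lower. Of all called genes 54.0% were higher, and 73.8% under quantile normalization or 74.0% under median scaling. Adamts8 read −3.61, −3.76 and −3.82 in TG sham and −4.60, −4.99 and −5.02 in WT sham, a difference of 1.14 ± 0.23 (adjusted p = 0.0474, limma). The arrays did not overlap, but the other probe gave −0.10 (adjusted p = 0.904, limma). The call held in 3 of 22 other settings, and without TG sham array 2 it was lost, leaving 0 genes. On slide 3, with 1 TG sham and 2 WT sham arrays, the difference was 1.04. The TG sham array there is array 2, where −3.76 lay under the lowest signal well above background, −1.92. WT sham array 2, also on that slide, read −4.99, under its own lowest such signal of −4.16. The slide therefore cannot check this call. Mmp2 (0.94, adjusted p = 0.0966, limma) and Adamts2 (0.88, adjusted p = 0.109, limma) did not pass. Their TG sham arrays also lay wholly above WT sham, as did those of 5 of the 37 genes, against 8.11% of all genes, and 0 had every array below, against 14.2%. The median over the 37 genes was 0.31, against −0.05 over all genes. Fibroblast markers summed to 22 to 22.9 in TG sham and 10.8 to 17.7 in WT sham, with 0 of 8 called. Smooth muscle and pericyte markers summed to 41.3 to 57.1 in TG sham and 22.7 to 25.9 in WT sham, and cardiomyocyte markers to 1688 to 1905 in TG sham and 2382 to 2485 in WT sham, with 0 called in either list. The 75th percentile that scales these values was also higher in TG sham (9.50, 9.51 and 9.50) than in WT sham (9.24, 8.97 and 9.22). The smooth muscle sum was led by Acta2, with log2 means of 5.28 in TG sham and 3.64 in WT sham. The median log2 difference of the 6 markers in that list was 0.12. Of 3 tested mesothelial markers 1 was lower. The part of these markers in the result was not tested. Of the pathway genes, Bsg and the laminin Lama2 were lower.

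The neutrophil collagenase Mmp8 is known from granulocytes. It read −4.75, −4.10 and −2.20 in TG sham and −7.94, −4.06 and −8.57 in WT sham. It was well above background on 2 TG sham arrays and on 0 WT sham arrays, the values overlapped, and the difference did not pass (adjusted p = 0.316, limma), so no fold is given. TG sham array 3, the highest, also held the highest values of the neutrophil genes S100a8 (2.07), S100a9 (4.0), Csf3r (5.38) and Cxcr2 (−2.96) of all arrays. Elane, of the same list, did not follow, with 0.26 there and 1.04 on WT sham array 3. WT sham array 2 was the highest of its group for Mmp8, S100a8 (0.67) and S100a9 (3.04), though Mmp8 was not well above background there. The part of neutrophils in these values was not tested.

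Under banding, 6 of the 37 genes were lower in TG TAC than in WT TAC and 0 were higher, against 1.86% and 2.14% of all genes. They were Adamts2, Adamts8, Adamts10, Adamts14, Mmp2 and Mmp23. Adamts2 read 1.65, 2.38 and 2.26 in TG TAC and 3.78, 3.79 and 4.29 in WT TAC, a difference of −1.86 ± 0.24 (adjusted p = 0.00571, limma). Mmp2 read 0.77, 1.08 and 0.57 in TG TAC and 2.04, 1.79 and 2.67 in WT TAC, a difference of −1.36 ± 0.25 (adjusted p = 0.0230, limma). All TG TAC arrays lay below all WT TAC arrays in both genes. Mmp23 read −0.20, 0.16 and −0.44 in TG TAC and 1.01, 0.74 and 1.37 in WT TAC, a difference of −1.20 ± 0.20 (adjusted p = 0.0180, limma). Adamts8 differed by −1.80 ± 0.23 (adjusted p = 0.00571, limma), while its other probe gave 0.34 (adjusted p = 0.635, limma). Adamts10 differed by −1.33 ± 0.30 (adjusted p = 0.0418, limma), a call that held in 7 of 22 other settings, with differences of −1.55 to −0.57. Adamts14, a procollagen N-proteinase that had not passed in WT TAC against WT sham, read −3.04, −2.88 and −2.71 in TG TAC and −2.23, −1.83 and −1.88 in WT TAC. It differed by −0.90 ± 0.15 (adjusted p = 0.0164, limma), and its other probe by −0.19 (adjusted p = 0.856, limma).

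Timp1 fell just short, although the size was the greatest of the 37: −1.21, 0.92 and 1.11 in TG TAC and 2.53, 2.74 and 3.06 in WT TAC, a difference of −2.50 ± 0.63 (adjusted p = 0.0564, limma). The groups did not overlap, and TG TAC array 1 lay well below the other TG TAC arrays. Mmp14 (−1.22, adjusted p = 0.0793, limma) and Adamts1 (−1.08, adjusted p = 0.0651, limma) also missed the threshold. In all, 10 of 37 genes had every TG TAC array below every WT TAC array, against 13.7% of all genes, and 4 had every array above, against 19.4%. The median over the 37 genes was −0.11, against 0.05 over all genes. Of the 47 pathway genes 15 were lower and 0 higher, 10 of them substrates, with the laminin Lama2 (−1.37), Col4a2 (−1.08), Fn1 (−2.40), which encodes fibronectin, and Col1a2 (−2.19) among them. Fibroblast markers summed to 26.5 to 31.0 in TG TAC and 57.8 to 80.6 in WT TAC, with 4 of 8 lower, and 3 of 6 smooth muscle and pericyte markers were lower. The smooth muscle sums overlapped, at 25.8 to 41.3 in TG TAC and 26.4 to 39.4 in WT TAC. Of that list 2 markers differed upwards without a call, Acta2 among them, with means of 4.55 in TG TAC and 3.60 in WT TAC. The part of the markers in these differences was not tested. Without TG sham array 2 the count was 8, Mmp14 being lower and Adamts7 higher in addition. It was 2 without TG TAC array 1 or without WT TAC array 3, and 3 without WT TAC array 1. Over all genes the calls in these 4 settings were 1120, 178, 196 and 258, against 1013 with every array. On slide 2, with 1 TG TAC and 2 WT TAC arrays, the 6 genes differed by −1.78 to −0.66. None of the 6 had overlapping groups, so a lower value there was fixed in advance and is no separate check. With slide as a fixed block 0 passed, and 32 of all genes did. This comparison and the one within wild type share the WT TAC arrays.

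The response to banding differed between genotypes for 6 of the 37 genes, all with a lower response in the transgenic than in the wild-type hearts, against 2.90% of all genes lower and 4.18% higher in this difference of differences. Of all called genes 59.0% were higher, against 36.6% under quantile normalization and 32.5% under median scaling. Timp1 responded by 0.62 in transgenic and 4.21 in wild-type hearts, a difference of −3.59 ± 0.89 (adjusted p = 0.0426, limma). That call held in 4 of 22 other settings, with differences of −4.0 to −1.95. Adamts8 responded by 0.91 in transgenic and 3.85 in wild-type hearts, a difference of −2.94 ± 0.33 (adjusted p = 0.0125, limma). Its other probe gave 0.44 (adjusted p = 0.625, limma), so the difference rests on 1 probe. Adamts2 responded by 0.04 in transgenic and 2.78 in wild-type hearts, a difference of −2.73 ± 0.34 (adjusted p = 0.0125, limma), and its other probe gave −0.91 (adjusted p = 0.187, limma). Mmp2 responded by 0.07 and Mmp23 by 0.25 in transgenic hearts, against 2.37 and 2.06 in wild-type hearts. Their differences were −2.30 ± 0.35 (adjusted p = 0.0140, limma) for Mmp2 and −1.81 ± 0.29 (adjusted p = 0.0153, limma) for Mmp23. Adamts10 responded by −0.49 in transgenic and 1.13 in wild-type hearts, a difference of −1.61 ± 0.42 (adjusted p = 0.0493, limma), and this call held in 3 of 21 other settings.

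The sham levels of these genes are given beside these differences. The TG sham means of Adamts2, Adamts8, Mmp2, Mmp23 and Timp1 were 2.05, −3.73, 0.74, −0.41 and −0.35, and their WT sham means were 1.17, −4.87, −0.21, −1.02 and −1.44. Each of these lay higher in TG sham, by 0.61 to 1.14, with only Adamts8 past the threshold there. The genes were taken for their difference of differences, which already holds both sham means. Higher TG sham levels are therefore in part built into the choice and are no separate result. Adamts10 had means of −4.09 in TG sham and −4.38 in WT sham, a smaller difference of 0.28 ± 0.30. Adamts1 (−1.49, adjusted p = 0.0541, limma) and Timp2 (−0.99, adjusted p = 0.0808, limma) did not pass. Of the 47 pathway genes 18 had a lower difference of differences, 10 of them substrates, and Bsg alone a higher one. Bsg fell in wild-type hearts, with means of 4.72 in WT TAC and 5.63 in WT sham. In transgenic hearts it read 5.08 in TG TAC and 4.99 in TG sham. Of 8 fibroblast markers 4 had a lower difference as well, and 4 of 7 cardiomyocyte markers a higher one. The median response of the cardiomyocyte markers was −0.74 in wild-type and −0.07 in transgenic hearts, so they fell less there. Without TG sham array 2 the count over the 37 genes was 5, and without WT sham array 3 it was 3. With slide as a fixed block it was 0. Over all genes the calls in these settings were 869, 141 and 0, against 1793 in the main fit.

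**Figure D4:**
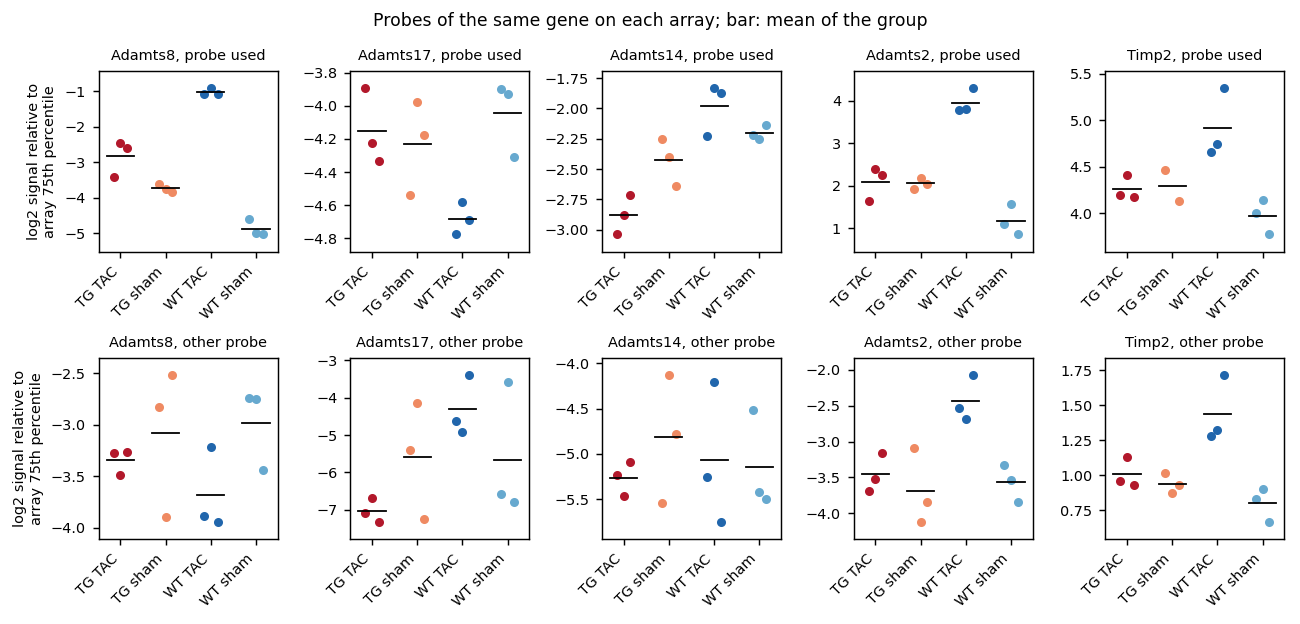
Log2 signal relative to the array's 75th percentile for both probes of 5 genes (top, the probe used; bottom, the other), by group; points are arrays and bars group means. The probes of Adamts2 and Timp2 are both highest in WT TAC, whereas those of Adamts8 and Adamts17 move in opposite directions between WT TAC and WT sham.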

How the data were processed

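Spot signals, an intensity per probe, came from Agilent Feature Extraction 10.7.3.1, per the file headers, as a processed signal with the background subtracted and spatial trends removed. The authors' deposited table is in log2 units and matched these signals scaled per array and centred per probe, with a Pearson r of 0.998 to 1.00 on each array. Its column medians were −0.09 to 0.12, and the authors' scaling step is stated nowhere in the labels or headers. The submitters' processing notes name RMA, without its role. Outlier and control spots were left out, spots of a probe averaged, and log2 of the processed signal was taken minus the 75th percentile of each array. Probes were named by transcript through RefSeq GRCm38.p6, giving a symbol to 26424 of 39429. The array annotation names another build, so gene positions serve only for order. The brightest probe stood for a gene, and 25321 genes well above background on at least 3 arrays were fitted in R 4.3.3 using limma 3.58.1. The model had 1 mean for each group, fitted over all 12 arrays, with two-sided moderated tests and 8 residual degrees of freedom. Of these, 162 genes had a missing value, among them Timp2 on TG sham array 2. The number of arrays limits the precision. A group with 0 arrays well above background gives only a bound, against the lowest signal well above background on each array or the probe's own. The limma fit was tested on simulated data, for WT TAC against WT sham alone. The filter, the choice of probe, the bounds and the other comparisons were not.

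Members, lists and tests were chosen with earlier results of these data known. Every tested member could be named: those that passed in any comparison are given in full, the others by count and range with up to 4 in a role group, and in each pathway list up to 4 genes with the smallest p, apart from Vcan and Comp in WT TAC against WT sham, chosen after their values were seen. Other settings were quantile and median scaling, normexp on median spot signals with an offset of 50 (the files hold no mean), the deposited table, other filters, the mean over probes, a replicate block, slide as a fixed or random block, the compared groups alone and each array left out. Values within a slide were added after seeing the data.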

Additional observations from a re-analysis of the deposited data

Results flagged for a closer look

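The response to banding differed between genotypes past the adjusted threshold for 6 genes, by the interaction term itself. The transgenic response minus the wild-type response, on the log2 scale, was −2.73 for Adamts2, −2.94 for Adamts8, −1.61 for Adamts10, −2.30 for Mmp2, −1.81 for Mmp23 and −3.59 for Timp1. In wild-type hearts all 3 TAC arrays lay above all 3 sham arrays for each of the 6. Among other settings the call held in 21 of 22 for Adamts2, 20 of 22 for Mmp2, 19 of 22 for Mmp23 and 19 of 21 for Adamts8, but in 4 of 22 for Timp1 and 3 of 21 for Adamts10. The Adamts8 value comes from 1 of its 2 probes, and the other gave 0.44.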

How the results depend on the processing

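The 3 arrays a group limit the precision, and dim genes are least certain on TG sham array 2, with its raised background. In WT TAC against WT sham the count of 12 became 7 under normexp background correction, 7 with the filter on all 12 arrays, which tests fewer genes, and 3 with slide as a fixed block, and it lay between 8 and 15 with an array left out. Over all genes 5378 calls of 25321 became 1686 under normexp and 547 with slide as a fixed block. They were 5192 of 12330 with the filter on all 12 arrays, and 2812 to 6209 with an array left out. Adamts2, Adamts8 and Mmp23 passed in every setting run there. Adamts17 reversed, to 0.45 under normexp and 0.35 as a mean over probes. In TG TAC against TG sham the count was 0 in every setting. In TG sham against WT sham the count of 1 became 0 under quantile normalization, median scaling, normexp, no filter, the mean over probes, the replicate block, slide as a fixed or a random block and the compared groups alone, and 2 (Adamts2 and Mmp2) with the filter on all 12 arrays; with an array left out it was 0 to 1. Over all genes the 363 calls of TG sham against WT sham became 49 under normexp and 43 with slide as a fixed block. In TG TAC against WT TAC the count of 6 became 1 under normexp, 3 with the replicate block, 0 with slide as a fixed block and 0 in the compared groups alone, and it was 2 to 8 with an array left out. Over all genes 1013 calls became 55, 363, 32 and 101 in the same order, and 178 to 1326 with an array left out. In the interaction 6 became 1 under normexp and 0 with slide as a fixed block, and it was 3 to 6 with an array left out. The replicate block gave 4. Over all genes 1793 calls became 17 under normexp, 0 with slide as a fixed block and 699 with the replicate block. With an array left out they were 141 to 2359. Calls were thus lost over all genes, and these losses are not particular to the 37. The causes were not tested. Over called genes and settings, 232 calls were kept, 37 lost and 2 reversed in WT TAC against WT sham, 92 kept and 43 lost in TG TAC against WT TAC, 3 and 19 in TG sham against WT sham, and 86 and 44 in the interaction. Normexp put the median of all genes in WT TAC against WT sham at 0.23 instead of −0.13, and median scaling put that of TG sham against WT sham at 0.08 instead of −0.05. The replicate block gave 12 calls in WT TAC against WT sham, 11 of them shared, with Adamts17 lost and Mmp12 gained. The replicate numbers did not pair the samples: of 18 pairs of arrays with the same number, 4 had deviations from the group means correlated above 0.1.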

Other observations

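Of the genes below the filter, the gelatinase Mmp9 had its 2 arrays well above background in TG sham, on arrays 1 and 3, at −5.50 and −5.59. It was well above background on 0 arrays of TG TAC, WT TAC and WT sham, where its measured means were −6.26, −6.82 and −6.52, and it was not tested. Adamts7, a proteinase that cleaves the cartilage matrix protein Comp, ran against the risen Adamts genes. It read −2.03, −2.24 and −2.46 in TG TAC and −3.16, −3.14 and −3.58 in WT TAC, with no overlap, and the difference of 1.05 ± 0.29 did not pass (adjusted p = 0.0718, limma). Without TG sham array 2, where it read lowest of all arrays at −3.62, it passed (adjusted p = 0.0250, limma).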
